A study of Danio rerio with 4 samples.

Results

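The classical cadherins, catenins and nectins are the core proteins of the adherens junction. Their transcripts were taken from the deposited table by symbol, as every row whose symbol began with cdh and a digit, with ctnn, with pvrl or with nectin. Going by name alone, such a rule can also take cadherins that are not classical cadherins of that junction. The rule found 32 of 27423 rows, under 30 symbols. Of these, 16 were cadherin rows, 10 were catenin rows and 6 were nectin rows, all 6 under the older zebrafish prefix pvrl. A row was treated as measured where its estimated count was at least 100 in all 4 libraries, which held for 21 of the 32 member rows (20 symbols) and for 13633 rows in all.

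The libraries held RNA of pooled whole zebrafish larvae at 48 hours post fertilization (hpf), 1 library per condition. The conditions were *goosepimples* (*gsp*/*myoVb*) homozygous mutants, their *gsp* siblings, *romeharsha* (*rhs*) homozygous mutants and their *rhs* siblings. Mutants were identified among the offspring of heterozygous parents and separated before collection, so the siblings were a mixture of heterozygous and homozygous wild type larvae. The series description gives 20 embryos per library out of 3 clutches per mutant, and the methods of the study give a larger number. *myoVb* encodes a motor protein of intracellular transport, and the gene mutated in *rhs* is not known. Both mutants develop rounded cells in the periderm, the outer layer of the epidermis, and the comparison asked which transcripts differed from the siblings in both.

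Cadherins are membrane proteins that bind the same kind of cadherin on the neighbouring cell. Inside the cell, p120 catenins bind the part of the cadherin tail near the membrane and keep it at the surface, beta catenins bind the end of the tail, and alpha catenins link that complex to actin. Nectins are immunoglobulin-type adhesion proteins that reach actin through afadin, and they often mark the contacts at which cadherins then gather. Different tissues use different cadherins: E-cadherin (*cdh1*) is the cadherin of epithelia such as the epidermis, N-cadherin (*cdh2*) is abundant in the nervous system, and VE-cadherin (*cdh5*) holds the vessel lining together. Beta catenin also carries the Wnt signal to the nucleus, so not every protein named for a catenin is a junction protein.

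Each ratio below is mutant over sibling, from estimated counts that were not scaled between libraries, and the main ones are followed by their exact 95% counting interval. The interval covers counting error only. As each condition had 1 library, there is no replicate error and no test within a line was possible. A fit that takes the mutants of different genes as replicates was not run. A ratio was called past the fold where its log2 value was at least 0.57 above or below 0. Library totals were between 106188690 and 118680429. Over the 13633 measured rows the median log2 ratio was −0.11 in *gsp* (SD 0.42) and −0.20 in *rhs* (SD 0.50), so ratios centred on those medians are given where a call depends on it. Between the *gsp* and *rhs* siblings, where no mutant enters, the log2 ratios had an SD of 0.73, and 18.5% of the measured rows were past the fold. *myo5b* itself stood at 1, the floor of the table, in both *gsp* libraries, so it does not check their labels. Levels of different genes are not compared, since the values are not per length.

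**Figure D1:**
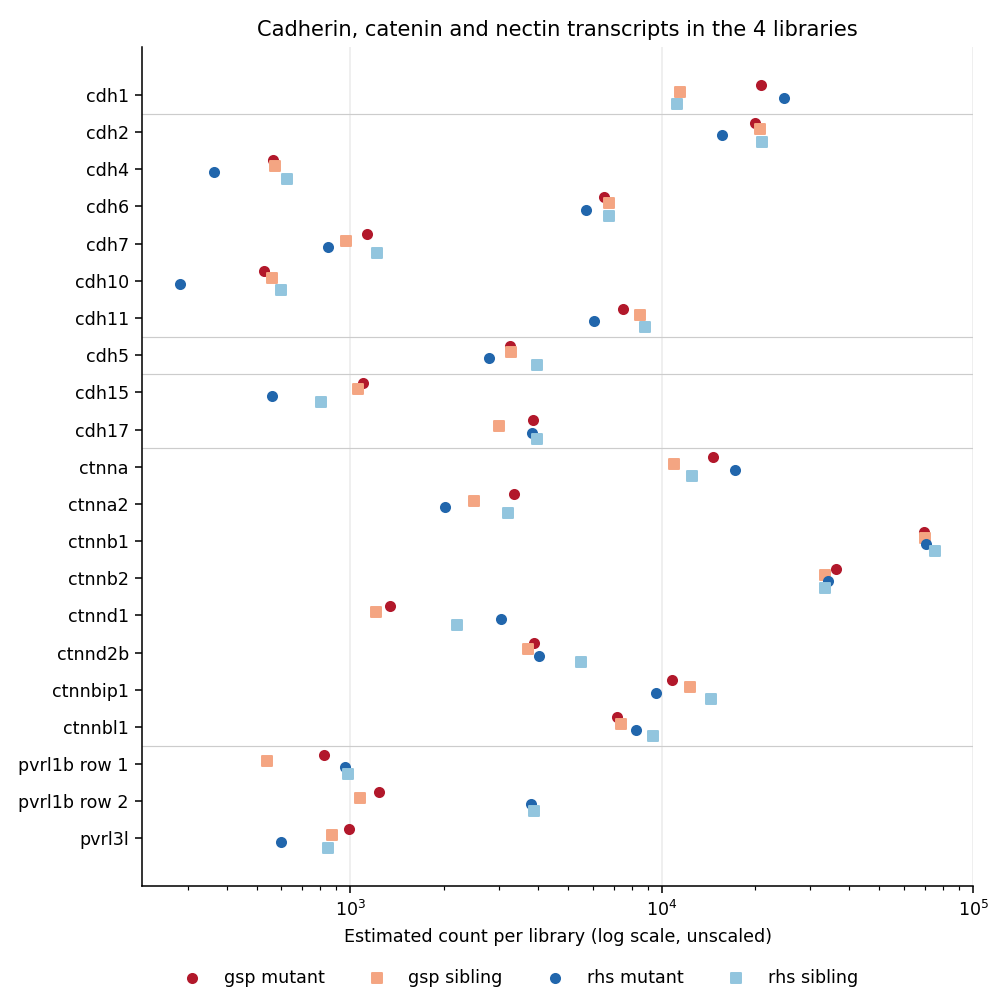
Estimated count (log scale, unscaled) of each of the 21 measured member rows in the 4 libraries, grouped from top to bottom into epithelial, neural, vascular and other cadherins, catenins and nectins. For *cdh1* both mutant libraries (20814.5 and 24769.4) lie to the right of both sibling libraries (11429.6 and 11191.5), while for *cdh10* the *rhs* mutant (284) lies apart on the left.

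*cdh1* was the only measured member past the fold in both mutants, and it was higher in both. It encodes E-cadherin and lies on chromosome 7 of danRer7, from 56206925 to 56228079 on the plus strand. It reached an estimated 20814.5 in *gsp* mutants against 11429.6 in their siblings. In the other line it was 24769.4 in *rhs* mutants against 11191.5 in their siblings. Both mutants were therefore above both siblings, and the siblings differed from each other by 1.02-fold. The ratio was 1.82 (1.78 to 1.86) in *gsp* and 2.21 (2.16 to 2.26) in *rhs*, or 1.96 and 2.54 after centring on the median of all rows. Among all measured rows 3.52% were past the fold and higher in both mutants, or 4.61% after centring. *cdh1* ranked 351st of 13633 rows by ratio in *gsp* and 306th in *rhs*, so 97.4% and 97.8% of rows had a lower ratio. Among the 21 measured members it had the highest ratio in each line. Against the *gsp* sibling as control, however, the *rhs* mutant had higher log2 ratios at *pvrl1b* on the minus strand (1.82) and at *ctnnd1* (1.33) than at *cdh1* (1.12).

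Rows for *cdh1*-like genes nearby took few counts. LOC100329859, described in the table as cadherin-1-like, starts and ends within 100 kb of *cdh1* on chromosome 7 (56107300 to 56124335) and had 114 in *gsp* mutants against 62.0 in their siblings, and 131 in *rhs* mutants against 60.4 in theirs. LOC568392, also cadherin-1-like (56164303 to 56171961), had 132, 44.6, 105.5 and 38.1 in the same libraries. Both rows were higher in both mutants and were chosen after their values were seen. Their counts were 0.548% and 0.633% of the *cdh1* count in *gsp* mutants, and reads of near-identical copies may have been split between such rows.

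Counted over the 21 measured members, 2 were past the fold and higher in *gsp* and 0 were lower, where 5.07% and 4.83% of all measured rows were. In *rhs* 1 was higher and 4 were lower (*cdh10*, *cdh4*, *ctnna2* and *ctnnbip1*), or 4.76% and 19.0% of the members, beside 6.45% and 12.6% of all rows. After centring on the median of all rows, *gsp* kept its 2 and 0, beside 6.69% and 2.81% of all rows. In *rhs* the split turned to 3 higher (*cdh1*, *ctnna* and *ctnnd1*) and 2 lower (*cdh10* and *cdh4*), beside 10.2% and 5.12% of all rows. With 21 members, 1 row is 4.76% of them, so these shares give no result about the members as a group. The members' median log2 ratio was 0.06 in *gsp* and −0.43 in *rhs*, beside −0.11 and −0.20 for all rows. Without *cdh1* the medians were 0.06 and −0.44. On the higher side the nearest members that did not pass the threshold were *ctnna2* in *gsp*, at 1.34, and *ctnnd1* in *rhs*, at 1.38.

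The distance of *cdh1* from the other cadherins was larger in *rhs* than in *gsp*. For the 9 other measured cadherins the median log2 ratio was −0.02 in *gsp*, against −0.52 in *rhs*, and *cdh1* stood above that median by 0.88 in *gsp* and by 1.66 in *rhs* on the log2 scale, a 1.84-fold and a 3.17-fold difference that no scaling between libraries alters. None of the 9 was past the fold in *gsp*, where 5.07% of all measured rows were higher and 4.83% lower. In *rhs* 2 of them were, both lower, beside 12.6% of all rows. All 9 had a log2 ratio below 0 in *rhs*, as did 9961 of the 13633 measured rows. Of the 9, 8 lay below the median of all rows. *cdh17* was the next highest cadherin in each line, 0.50 below *cdh1* in *gsp* and 1.21 below it in *rhs* on the log2 scale.

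As a share of the summed counts of the 10 measured cadherins, *cdh1* made up 31.9% (exact binomial interval 31.5 to 32.3) in *gsp* mutants against 20.1% (19.8 to 20.5) in their siblings. It made up 40.7% (40.3 to 41.1) in *rhs* mutants against 19.0% (18.7 to 19.3) in their siblings. These shares are not corrected for transcript length, so they serve to compare libraries and not genes. The summed count of the other 9 cadherins was 44449 in *gsp* mutants against 45340 in their siblings, a ratio of 0.980. It was 36033 in *rhs* mutants against 47806 in their siblings, a ratio of 0.754. The share of *cdh1* was thus higher in *gsp* mainly through its own count, and in *rhs* through a higher *cdh1* count and lower counts of the others. Counts of *cdh1* per count of *cdh2* were 1.04 in *gsp* mutants against 0.553 in their siblings, and 1.59 in *rhs* mutants against 0.533 in theirs.

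**Figure D2:**
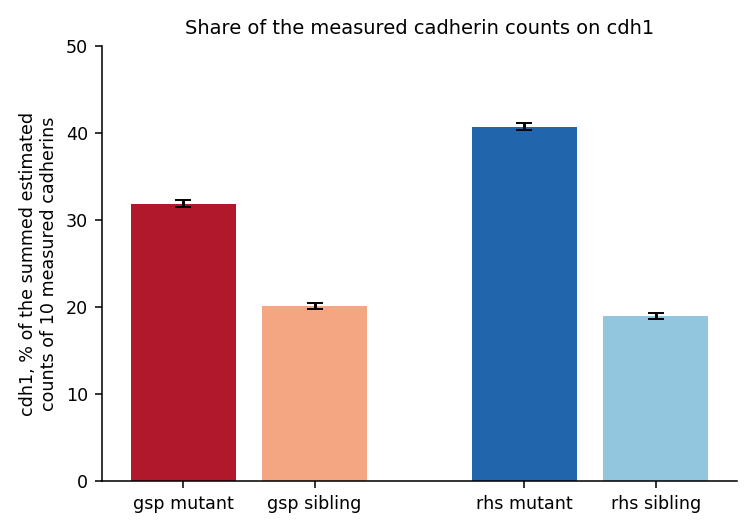
Share of the summed estimated counts of the 10 measured cadherins that fell on *cdh1*, in percent, with 1 bar per library starting at 0 and exact binomial 95% intervals that cover counting error only. The bars stand at 31.9% and 20.1% for the *gsp* mutant and sibling and at 40.7% and 19.0% for the *rhs* mutant and sibling.

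The 6 cadherins grouped here as neural were near their sibling values in *gsp* and lower to differing degrees in *rhs*. Their median log2 ratio was −0.05 in *gsp* and −0.53 in *rhs*, and all 6 lay below the median of all rows in *rhs*. *cdh10*, a type II cadherin of the brain, had 528 in *gsp* mutants against 560 in their siblings, and 284 in *rhs* mutants against 597 in theirs. Only the *rhs* mutant stood apart, at a ratio of 0.476 (0.412 to 0.549), against 0.943 in *gsp*. *cdh4*, R-cadherin, known from the retina and other parts of the nervous system, had 564, 571, 365 and 624 in the same order. Its ratio was 0.585 (0.513 to 0.667) in *rhs* and 0.989 in *gsp*. Both stayed past the fold in *rhs* after centring, at 0.546 for *cdh10* and 0.671 for *cdh4*.

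The other 4 neural cadherins were within the fold in both lines. *cdh2*, N-cadherin, had 19990 in *gsp* mutants against 20667 in their siblings, and 15621 in *rhs* mutants against 21009 in their siblings. Its ratios were 0.967 (0.949 to 0.986) and 0.744 (0.728 to 0.759). *cdh11*, a cadherin of mesenchyme as well as of the nervous system, had 7492 and 8488 in *gsp* mutants and siblings and 6059 and 8825 in *rhs* mutants and siblings. With a ratio of 0.687 (0.664 to 0.710) in *rhs* it was the nearest to the threshold of the members that did not pass it, and *cdh7*, at 0.696 (847 in *rhs* mutants against 1217 in their siblings), lay next to it. *cdh6*, which is also expressed in neural crest and kidney, had the highest *rhs* ratio of the 6, 0.842 (0.813 to 0.873).

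*cdh5*, the cadherin of the vessel lining, had 3266 in *gsp* mutants against 3279 in their siblings, a ratio of 0.996 (0.949 to 1.05). It had 2778 in *rhs* mutants against 3979 in their siblings, a ratio of 0.698 (0.665 to 0.733), within the fold. *cdh15*, M-cadherin of muscle, had 1100 and 1058 in *gsp* mutants and siblings and 562 and 803 in *rhs* mutants and siblings. Its ratios, 1.04 and 0.6997 (0.627 to 0.781), were close in value to those of *cdh5*, but in *rhs* this depended on the control. Against the *gsp* sibling the *rhs* log2 ratio was −0.91 for *cdh15*, past the fold, and −0.24 for *cdh5*. Against the mean of both siblings it was −0.73, past the fold, and −0.39. *cdh17*, a cadherin known in zebrafish from the pronephros, lay above both in each line. It had 3847 and 2993 in *gsp* mutants and siblings, a ratio of 1.29 (1.22 to 1.35), and 3816 and 3982 in *rhs* mutants and siblings, a ratio of 0.958 (0.916 to 1.002). The *gsp* mutant thus lay between the *rhs* libraries, with the *gsp* sibling below them. Against the *rhs* sibling as control the *gsp* log2 ratio of *cdh17* was −0.05.

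**Figure D3:**
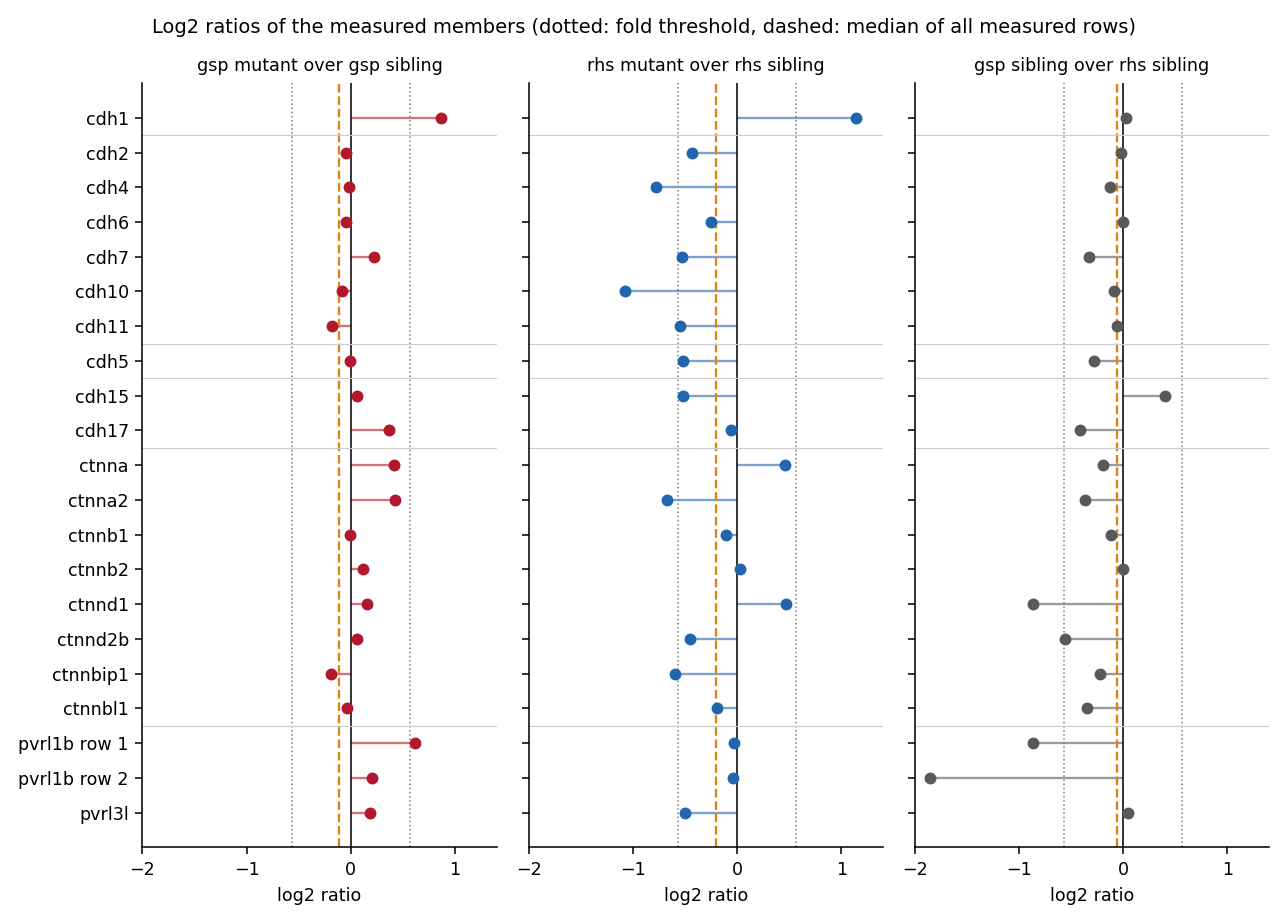
Log2 ratios of the 21 measured member rows for the *gsp* mutant over its sibling (left), the *rhs* mutant over its sibling (middle) and the *gsp* sibling over the *rhs* sibling (right). Dotted lines mark the fold at 0.57 on either side of 0 and dashed lines the median of all 13633 measured rows. *cdh1* is past the fold on the right in both mutants (0.86 and 1.15), *cdh10* and *cdh4* lie farthest left in *rhs*, and the largest gap between siblings is at the second *pvrl1b* row (−1.86).

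In pooled whole larvae, fewer cells of a type and less RNA per cell cannot be told apart, so marker lists of the tissues in which these cadherins are used are given beside them. All lists were chosen with earlier results of these data known. The marker counts of each tissue stand beside these shares of all measured rows. In *gsp* 5.07% were past the fold and higher and 4.83% lower, or 6.69% and 2.81% after centring. In *rhs* 6.45% were higher and 12.6% lower, or 10.2% and 5.12% after centring. Neuron markers were lower in *rhs* with the neural cadherins. All 10 measured markers had a log2 ratio below 0 and 9 of 10 were past the fold and lower (6 after centring), with a median of −0.81, and their summed count was 144415 in *rhs* mutants against 238467 in their siblings. In *gsp* 0 of the 10 were past the fold, the median was −0.15 and the sums were 199946 in the mutant and 239423 in the sibling. *cdh10* (−1.07 in *rhs*), the lowest of the neural cadherins there, lay within the range of the neuron markers (−1.09 to −0.42). So did *cdh4* (−0.77), *cdh11* (−0.54), *cdh7* (−0.52) and, at its upper end, *cdh2* (−0.43), while *cdh6* (−0.25) lay above it. Markers of neural progenitors and glia had medians of 0.10 in *gsp* and −0.13 in *rhs*, with sums of 150593 and 165843 in *gsp* mutants and siblings and of 149406 and 182382 in *rhs* mutants and siblings. None of those 11 rows was past the fold in *rhs*, and 2 were higher in *gsp*, both of them rows of *notch1a*. The part of these markers in the values of the neural cadherins was not tested.

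Vessel markers had medians close to the values of *cdh5* in both lines. The median of the 11 measured rows was −0.08 in *gsp* and −0.53 in *rhs*, against −0.01 and −0.52 for *cdh5*, and their sums were 17411 and 18394 in *gsp* mutants and siblings and 13845 and 19498 in *rhs* mutants and siblings. In *rhs* 5 of the 11 were past the fold and lower, beside 12.6% of all rows, and 0 were after centring, beside 5.12%. *tie1*, a defining gene of the list, was at the floor in all 4 libraries. Muscle markers had a median of −0.48 in *rhs*, beside −0.52 for *cdh15*, and sums of 1861645 in *rhs* mutants against 2588624 in their siblings, and 3 of 9 were past the fold and lower (0 after centring). In *gsp* their median was 0.14, the sums were 3134766 in the mutant and 2290789 in the sibling, and 3 of 9 were past the fold and higher. Markers of pronephros and gut had medians of −0.02 in *gsp* and −0.37 in *rhs*, with *cdh17* above the median in both lines. Their sums were 48884 and 66369 in *gsp* mutants and siblings and 66988 and 63982 in *rhs* mutants and siblings. Most of each sum lay on the gut markers *fabp1b.1* and *fabp2*. Their ratios were 0.583 and 0.636 in *gsp* and 1.17 and 1.12 in *rhs*, so the sums do not stand for the pronephros. Over all 8 markers, 4 had a log2 ratio below 0 in *gsp* and 5 in *rhs*. Of these 8 markers 1 was past the fold and higher in *gsp*, 2 were past it and lower there, and in *rhs* 2 were lower (0 after centring). Whether these markers account for any of the cadherin values was not tested.

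*cdh1* stood apart from the markers listed here for its own tissue. In *gsp* the 11 measured markers of periderm and epidermis had a median log2 ratio of −0.48. Of the 11, 5 were past the fold and lower, namely *cyt1*, *cyt1l*, *krt4*, *krt5* and *icn2*, beside 4.83% of all rows. The summed count of the 11 markers was 3873922 in *gsp* mutants against 7319771 in their siblings, a ratio of 0.529. Most of it lay on *krt4*, *cyt1* and *cyt1l*. In *rhs* the median was 0.13, and the sums were 6807490 in the mutant and 6122011 in the sibling, a ratio of 1.11. There 3 of 11 were past the fold and higher, namely *cldni*, *krt8* and *ppl*. These 3 went the same way as *cdh1* in *gsp* too, within the fold, at ratios of 1.12, 1.17 and 1.15. The other 8 markers had a log2 ratio below 0 in *gsp*. *cdh1* lay above every one of the 11 markers in each line, by 1.34 over their median in *gsp* and by 1.02 in *rhs* on the log2 scale. This holds for the listed markers only. *grhl3*, an epidermal regulator outside the list, had a ratio of 2.29 in *gsp*, above *cdh1* (1.82), and of 1.96 in *rhs*, below it (2.21). *tp63*, a regulator of basal epidermal cells, had 7669 in *gsp* mutants against 8915 in their siblings, and 9563 in *rhs* mutants against 8657 in their siblings.

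**Figure D4:**
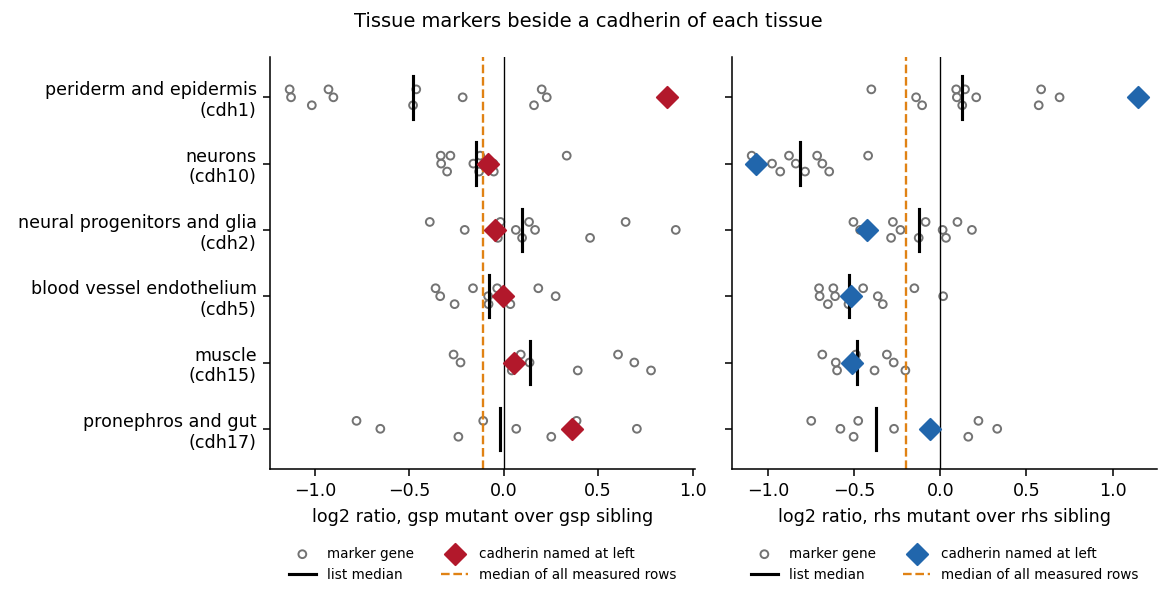
Log2 ratio, mutant over sibling, of the measured markers of 6 tissues (open circles, with the list median as a black bar) and of a cadherin used in that tissue (diamond), for *gsp* on the left and *rhs* on the right. The dashed line is the median of all measured rows. The diamond beside the neuron markers is *cdh10*, which had the lowest *rhs* ratio of the neural cadherins. *cdh1* lies to the right of every epidermal marker in both panels, while *cdh5* (−0.01 and −0.52) lies close to the median of the vessel markers (−0.08 and −0.53).

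Of the 8 measured catenins none was past the fold in *gsp*, where 5.07% of all rows were higher and 4.83% lower. In *rhs* 2 were past it, *ctnna2* and *ctnnbip1*, both lower, beside 12.6% of all rows. After centring these 2 were within the fold in *rhs*. *ctnna* and *ctnnd1* were then past it and higher, beside 10.2% of all rows, so the direction of the count depends on scaling. The alpha catenins parted from each other in *rhs*. *ctnna*, the row of the widely expressed alpha catenin (current symbol *ctnna1*), was higher in both mutants and within the fold in both, though past it in *rhs* after centring (1.57). It had 14599.5 in *gsp* mutants against 10945 in their siblings, and 17228 in *rhs* mutants against 12548 in their siblings. Both mutants were above both siblings, as for *cdh1*, at ratios of 1.33 (1.30 to 1.37) and 1.37 (1.34 to 1.41). *ctnna2*, the alpha catenin of neurons, had 3341 and 2491 in *gsp* mutants and siblings, a ratio of 1.34 (1.27 to 1.41). It had 2012 and 3212 in *rhs* mutants and siblings, a ratio of 0.626 (0.592 to 0.663), past the fold. *ctnna2* thus had the lowest ratio of the measured catenins in *rhs*. In *gsp* it had the highest, but its interval overlapped that of *ctnna*. Against the *rhs* sibling as control the *gsp* log2 ratio was 0.06 for *ctnna2* and 0.22 for *ctnna*.

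Both beta catenins were within the fold in both lines. *ctnnb1* had 69520 in *gsp* mutants against 69816.5 in their siblings, and 70487 in *rhs* mutants against 75653.5 in their siblings. Its ratios were 0.996 (0.985 to 1.01) and 0.932 (0.922 to 0.941). *ctnnb2* had 36291 and 33472 in *gsp* mutants and siblings and 34069 and 33462 in *rhs* mutants and siblings, at ratios of 1.08 (1.07 to 1.10) and 1.02 (1.003 to 1.03). Summed over both genes, the ratio was 1.02 in *gsp* and 0.958 in *rhs*, beside 1.82 and 2.21 for *cdh1*.

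The 2 p120 catenins lay on opposite sides of their sibling values in *rhs*. *ctnnd1*, p120 catenin itself, had 1344 in *gsp* mutants against 1210 in their siblings, and 3045 in *rhs* mutants against 2204 in their siblings. Its ratio was 1.11 (1.03 to 1.201) in *gsp* and 1.38 (1.31 to 1.46) in *rhs*, but the siblings alone differed by 1.82-fold, so the 4 values separate the lines and not mutants from siblings. *ctnnd2b*, a delta catenin of neurons, had 3896 and 3731 in *gsp* mutants and siblings and 4034 and 5507 in *rhs* mutants and siblings, at ratios of 1.04 and 0.732 (0.703 to 0.763). Its siblings differed by 1.476-fold. The *rhs* mutant was above both *gsp* libraries, and against the *gsp* sibling as control its log2 ratio was 0.11.

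The remaining catenin rows encode no structural part of the junction. *ctnnbip1*, an inhibitor that keeps beta catenin from its transcription partners, had 10820.5 in *gsp* mutants against 12324 in their siblings, and 9550 in *rhs* mutants against 14408 in their siblings. Its ratio was 0.878 (0.856 to 0.901) in *gsp* and 0.663 (0.646 to 0.680) in *rhs*, lower and past the fold, and of the members past it the nearest to the threshold. *ctnnbl1*, a nuclear protein of the splicing machinery that resembles catenins, had ratios of 0.977 and 0.877.

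Of the nectins, 3 of 6 rows were measured. The symbol *pvrl1b* (current symbol *nectin1b*) has 2 rows on opposite strands of chromosome 18 of danRer7. The row on the plus strand, from 41324162 to 41562342, had 824 in *gsp* mutants against 539 in their siblings, a ratio of 1.53 (1.37 to 1.71) and the second member past the fold in *gsp*. It had 960 in *rhs* mutants against 980 in their siblings, a ratio of 0.979. The *gsp* mutant was thus below both *rhs* libraries, and against the *rhs* sibling as control its log2 ratio was −0.25. The row on the minus strand, from 41670067 to 41712821, had 1239 and 1074 in *gsp* mutants and siblings, a ratio of 1.15 (1.06 to 1.25), and 3794 and 3896 in *rhs* mutants and siblings, a ratio of 0.974. In that row the siblings differed by 3.63-fold, more than any mutant from its own sibling among the measured members. *pvrl3l* (*nectin3b*) had 988 and 870 in *gsp* mutants and siblings and 599 and 845 in *rhs* mutants and siblings, at ratios of 1.14 (1.04 to 1.25) and 0.708 (0.637 to 0.788).

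The members with the largest gaps between siblings shared a property of the deposited table. Each row carries a type label, FL or MO, for each line, and what the labels stand for is not given in the sources used here. Over the measured rows labelled FL in both lines the log2 ratio between siblings had an SD of 0.35, over those labelled MO in both an SD of 1.14, and over those labelled FL in *gsp* and MO in *rhs* an SD of 0.73. The 3 members past the fold between siblings were *ctnnd1*, labelled MO in both lines, and the 2 *pvrl1b* rows, labelled FL in *gsp* and MO in *rhs*. None of the 11 measured members labelled FL in both lines was past the fold between siblings, though *ctnnd2b*, at 1.476-fold, lay just under it. Of all measured rows with those labels 8.397% were past it, so that 0 of 11 is near the background. Of the 10 measured members with an MO label in either line, 7 were within the fold too, such as *cdh6* (1.002-fold) and *cdh11* (1.04-fold). Of all measured rows labelled FL in *gsp* and MO in *rhs*, 31.6% were past it. The share was 27.0% for MO in *gsp* and FL in *rhs*, and 35.0% for MO in both. The 3 members past it are thus near the background too. *cdh1*, *cdh2*, *cdh4*, *cdh10*, both beta catenins and *ctnnbip1* are among the 11 labelled FL in both lines.

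The 11 members that were not measured fall into 7 rows at the floor value of 1 in all 4 libraries and 4 rows under the minimum in some library. At the floor were *cdh8*, *cdh12*, *cdh13*, both rows of *cdh23*, *ctnnd2a* and a second alpha catenin row under *ctnna1*, beside 9935 rows at the floor in all 4 libraries in the whole table. The floor does not show that a transcript was absent. Of the rows at the floor in both *rhs* libraries only, 117 had at least 1000 in each *gsp* library, among them *epcam*, an epithelial adhesion protein chosen here after its values were seen, with 93323 in *gsp* mutants against 44135 in their siblings. *pvrl4* (*nectin4b*) was also at the floor in 1 line only, with 445 in *gsp* mutants, 414 in *gsp* siblings and the floor value in both *rhs* libraries. The other 3 had low counts. *cdh18*, a type II cadherin of the nervous system, had 104 and 114 in *gsp* mutants and siblings and 49.0 and 133 in *rhs* mutants and siblings, with a ratio of 0.370 (0.260 to 0.515) in *rhs*. *pvrl1a* (*nectin1a*) had 188 and 153 in the *gsp* pair and 89.5 and 197 in the *rhs* pair, each with the mutant before its sibling. *pvrl2l* had 48.8 and 14.9 and then 93.8 and 38.3 in the same order, and was the only one of the 3 that was higher in both mutants.

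Of 59 symbols listed as cytoplasmic partners, mostly proteins that bind the junction from inside the cell, 25 were found in the deposited table. The counts below therefore cover part of the list only. Of the 22 measured rows, 0 were past the fold and higher in both mutants, where 3.52% of all measured rows were, and 0 were lower in both. In *gsp* 1 was higher and 0 were lower, beside 5.07% and 4.83% of all rows. In *rhs* 2 were higher and 1 was lower, beside 6.45% and 12.6% of all rows. These counts are near the background, and their median log2 ratios were 0.18 in *gsp* and −0.03 in *rhs*. *mllt4*, afadin, the partner of nectins, had ratios of 1.02 and 0.985. *jup*, plakoglobin, a relative of beta catenin that also serves desmosomes, had 40672 in *gsp* mutants against 30385 in their siblings, and 45419.7 in *rhs* mutants against 27835.5 in their siblings. Both mutants were above both siblings, and its ratio of 1.63 was past the fold in *rhs*, against 1.34 in *gsp*. Both genes were chosen after their values were seen.

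Of a list of regulators of epithelial cadherin transcription, known as such mainly from mammals, 17 rows were measured. The list also holds *esrp1* and *esrp2*, which are regulators of splicing and not of transcription. Before centring, 1 of the 17 was past the fold the same way in both mutants, beside 3.52% of all rows higher in both. That was *grhl3*, of the Grainyhead-like family of epidermal regulators, with 3453 in *gsp* mutants against 1506 in their siblings, and 2500 in *rhs* mutants against 1276 in their siblings. In *rhs* 4 of the 17 were higher, namely *grhl3*, *grhl2a*, *grhl1* and the splicing regulator *esrp1*, at ratios between 1.62 and 1.96. Over all measured rows 6.45% were past the fold and higher in *rhs*, and 12.6% were lower. The 3 that were lower in *rhs* were *twist2* (0.527), *snai1b* (0.618) and *zeb2a* (0.670), of families known for repressing E-cadherin. Other members of those families did not pass the threshold in *rhs*, namely *snai1a* (0.863), *snai2* (0.892), *twist3* (0.888) and *twist1a* (1.02), and neither did *tfap2a*, an epidermal transcription factor, which at 0.676 lay next to it. After centring, 6 in *rhs* were higher and 1 was lower, beside 10.2% and 5.12% of all rows. In *gsp* only *grhl3* of the 17 was past the fold before centring, and *twist2* (0.919), *snai1b* (0.780) and *zeb2a* (1.16) were within it. After centring 2 were higher in *gsp*, *grhl3* and *ovol1*, beside 6.69% of all rows. *ovol1* was then past the fold in both mutants, at 1.59 in *gsp* and 1.67 in *rhs*, against 1.474 and 1.458 before centring. The 17 leave out *elf3*, of the same list, which was at the floor in both *rhs* libraries. It had 7354 in *gsp* mutants against 1799 in their siblings, a ratio of 4.09 (3.88 to 4.31). *snai3*, under the minimum, had 39.2 in *gsp* mutants against 60.2 in their siblings. Genes of this list other than *grhl3* were chosen after their values were seen.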

How the data were processed

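RNA of 4 pooled libraries of zebrafish larvae at 48 hpf, 1 per condition, was sequenced as paired reads, trimmed, aligned with TopHat to danRer7 and quantified with DEGseq by the authors. Their main table holds, per the file headers, raw and normalized columns. The raw columns were treated as estimated counts deposited by the authors: they carry no scaling between libraries and have a floor of 1, although the study calls them RPKM. Transcript length cancels in a ratio of the same row between libraries, but the division by the library total that is part of RPKM does not. Dividing the values by the library total gave *cdh1* ratios of 1.99 in *gsp* and 2.31 in *rhs*. The counting intervals take the values to be counts. The deposited normalized columns are log2 values, shifted by 1 constant per library and centred per row, and were used as an alternative only. The authors also deposited tables of their own comparisons (log2 ratios and fold values past 2-fold), which were not used.

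Ratios were taken from the raw columns over rows with at least 100 in all 4 libraries, and the fold was 1.48, both following the study, with no filter on the siblings. As each condition has 1 library, no test was run. Intervals are exact Clopper-Pearson intervals at 95% on values rounded to whole counts. PCR copies and mates of a pair are not independent molecules, so they understate counting error. The scripts were tested on simulated data in which 200 rows had a known change.

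The members were named by rule: every measured member may be named, with the 4 values of *cdh1*, of each member past the fold, of the leading members of each role group and of those next to the fold, and of partner genes past the fold the same way in both mutants. The members, gene lists and rule were chosen with earlier results of these data known. Current symbols were looked up by Entrez identifier in RefSeq's table of assembly GRCz12tu, which held 31 of the 32 member rows and of which no coordinates were used.

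Alternatives were median-centred ratios, TMM scaling (edgeR 4.0.16), division by the library total, minimums of 50 and 500, no minimum with a pseudocount of 10, a pseudocount of 100, control values from the other line's sibling or from a mean over both siblings, a filter on siblings, 1 row per symbol and a threshold of 2-fold. The normalized columns and the restriction to rows labelled FL in both lines were chosen after seeing the data. Python 3.11.15 with pandas 2.3.3, numpy 2.4.6 and scipy 1.17.1 was used.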

Additional observations from a re-analysis of the deposited data

How the results depend on the processing

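The direction of *cdh1* was the same under all 14 alternatives in both lines, but not all of them could change it. Alternatives that only chose rows or moved the threshold left its ratio at 1.82 in *gsp* and 2.21 in *rhs* by construction. They were the lower and the higher minimum, the sibling filter, 1 row per symbol, rows labelled FL in both lines and the 2-fold threshold. A pseudocount of 10 or 100, added alike to mutant and sibling, could move the ratio but not change its direction. None of these alternatives is a test of its direction. *cdh1* was past the fold in both mutants under each alternative other than the 2-fold threshold. At that threshold 0 members were higher in *gsp*, 1 was higher in *rhs* (*cdh1*) and 1 was lower in *rhs* (*cdh10*). *cdh1* had the highest ratio of the members in each line other than in *rhs* against the *gsp* sibling and in *gsp* with no minimum. Its ratio was 1.96 in *gsp* and 2.54 in *rhs* after median centring, 1.96 and 2.50 with TMM scaling, 1.99 and 2.31 with division by the library total, and 2.48 in *rhs* with the authors' normalized columns. Its distance above the median of the other cadherins was 0.997 in *gsp* and 1.52 in *rhs* on the log2 scale with the other line's sibling as control, and 0.94 and 1.55 with the mean of both siblings. In *rhs* it was 1.57 with no minimum and a pseudocount of 10, 1.62 with a pseudocount of 100, and 1.75 over rows labelled FL in both lines.

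The 2 members higher in *gsp* became 1 (*cdh1*) with a pseudocount of 100, against either alternative sibling control, with siblings within the fold, with 1 row per symbol and over rows labelled FL in both lines. *pvrl1b* on the plus strand had a log2 ratio of −0.25 in *gsp* against the *rhs* sibling. Members lower in *gsp* numbered 2 against the *rhs* sibling and 1 against the mean of both siblings. Members higher in *rhs* numbered 3 after median centring, with TMM scaling, with the mean of both siblings and with the normalized columns, 2 with no minimum, and 5 against the *gsp* sibling. Members lower in *rhs* numbered 2 after median centring, with TMM scaling, with a minimum of 500 and with the normalized columns.

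The median log2 ratio of the members in *gsp* was 0.17 after median centring and with TMM scaling, 0.19 with division by the library total, −0.12 against the *rhs* sibling, −0.060 against the mean of both siblings and −0.0061 over rows labelled FL in both lines. In *rhs* it was −0.23 after median centring, −0.25 with TMM scaling, with a minimum of 500 and with the mean of both siblings, −0.36 with division by the library total, −0.082 with no minimum, −0.20 against the *gsp* sibling, −0.47 with siblings within the fold and −0.26 with the normalized columns. Of 514 values of single members under the alternatives, 332 stayed within the counting interval, 181 moved by more and 1 changed sign after being past the fold. A change of sign was counted apart only for members past the fold, so it is not 1 in 514. Changes of sign in other members, such as *ctnnd2b* in *rhs* (−0.45, and 0.11 against the *gsp* sibling), are not shown by that count. The 332 include values under alternatives that only chose rows, which could not move them. The causes of the differences between alternatives were not tested beyond what the scaling, the control or the smaller set of rows does by construction. No fit with the line as a block was run. With 1 library per condition, differences between clutches, between pools and between genotypes cannot be told apart, and a transcript at the floor may be one to which no reads were assigned.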

Other observations

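Some rows that the table describes in words as cadherins, catenins or nectins carry only a locus symbol and so fall outside the symbol rule. There were 18 of them, 11 at the floor in all 4 libraries and 2 with at least 100 in all 4, and those named here were chosen after their values were seen. Both of the rows with at least 100 are described as poliovirus receptor-related proteins, the older name of nectins. LOC560512, described as protein 4-like and listed by RefSeq as *nectin4a*, had 1168 in *gsp* mutants against 863 in their siblings, and 1874 in *rhs* mutants against 1065 in their siblings. Its ratio was 1.35 in *gsp*, within the fold, and 1.76 (1.63 to 1.90) in *rhs*, past it. LOC560816, described as protein 2-like, had 349 and 186 in *gsp* mutants and siblings, a ratio of 1.88 (1.57 to 2.25), and 546 and 270 in *rhs* mutants and siblings, a ratio of 2.03 (1.74 to 2.35). In both rows the 2 mutants were above the 2 siblings. This held for none of the 3 nectin rows with at least 100 that the symbol rule found.

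LOC571792, listed by RefSeq as *cdh26.1*, was at the floor in both *gsp* libraries and had 1299 in *rhs* mutants against 780 in their siblings, a ratio of 1.66 (1.52 to 1.82). LOC100332418, listed as *cdh19*, was at the floor in both *rhs* libraries and had 425 in *gsp* mutants against 473 in their siblings.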
